A study of Mus musculus with 4 samples.

Results

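The cells described here were 2451 single T cells that the authors' annotation placed in the tumor library under the label Cd4, out of 5570 tumor cells and 10558 cells in both libraries. They made up 44.0% of the tumor library. The tumor library also held 2693 cells labelled Tdp, 406 labelled Tcell, 19 labelled Treg and 1 labelled Cd8, and the lymph node library held 2788 labelled Cd8, 1873 labelled Cd4, 321 labelled Treg and 6 labelled Tdp. Labels with fewer than 50 cells were not used for comparison. The sources used here do not say how the authors assigned the labels or what Tdp stands for.

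The tumors were B16F10, a transplantable mouse melanoma, grown under the skin of mice that received cyclophosphamide, a lymphocyte-depleting drug, once at 250 mg/kg. Per the labels' protocols, purified TRP1 CD4+ T cells were injected 1 day later, and tumors were taken 11 days after transfer for sorting of CD4+ and CD4+CD8+ cells carrying the CD45.1 mark. All samples, lymph node included, were labelled with strain RAG1- BW TRP-1 TCR, with treatment "untreated" and with the tumor as the source, which the protocol text and the lymph node titles contradict. The titles of the tumor samples name transgenic and endogenous cells, and those of the lymph node samples name endogenous cells, so tissue and origin of the cells cannot be told apart in any comparison across libraries. The number of animals is not given. Each tissue gave 1 RNA library, so no difference below has a replicate check and no test between samples was made. Every interval is a 95% interval that covers counting error only.

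CD4 T cells recognise peptides on class II molecules and act largely through other cells. They do so by surface ligands of the tumor necrosis factor (TNF) family, such as CD40 ligand, and by secreted cytokines such as interferon gamma and interleukin 21. Type 1 helper cells, driven by the factor T-bet, make interferon gamma, and some CD4 cells in tumors also carry the granule proteases better known from CD8 T cells. Naive and central memory cells circulate through lymph nodes with the aid of the receptor CCR7, and lose it when they become effector cells.

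The Cd4-labelled tumor cells held 13964474 UMIs (unique molecular identifiers, each counting 1 captured RNA molecule). A cell had a median of 5533 UMIs, with the 5th percentile at 2968.5 and the 95th at 9180, and a median of 1788 genes. For comparison, the median was 6633 UMIs in tumor Tdp, 2040 in tumor Tcell, 4763 in lymph node Cd4, 6306 in lymph node Cd8 and 5225 in lymph node Treg cells. Levels are given as CPM, in which the UMIs of a gene, summed over all cells of a label, are scaled to the same total in every label. Shares of cells are given after thinning each cell to 2000 UMIs, which kept 2418 of these cells and left out 33. In all, 36 barcodes occurred in both libraries, 18 of them among these cells, and leaving them out moved no count of genes below by over 1.5 times.

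The markers Cd4, Cd40lg, Tnfrsf4 and Tnfsf11 were set beside the label. These markers were chosen with earlier results of these data known, so they are no independent check of it. A Cd4 UMI was found in 84.4% of the cells before thinning (exact Clopper-Pearson interval 82.9% to 85.8%). At equal depth the share was 55.7%, against 42.5% of tumor Tdp cells, 42.1% of tumor Tcell cells, 28.7% of lymph node Cd4 cells and 1.77% of lymph node Cd8 cells. Cd4 alone thus separated these cells little from the other tumor labels. Cd40lg, Tnfrsf4 and Tnfsf11 were each seen in at most 14.6% of Tdp cells, but Tcell cells were closer to the Cd4 label. The helper identity list, 9 genes with Tnfrsf4 among them, summed to 2858 CPM in tumor Cd4, 1465 CPM in Tcell and 1063 CPM in Tdp cells. A UMI of Cd8a or Cd8b1 was found in 10.2% of the cells (9.07% to 11.5%), nearly the same as the 10.2% of lymph node Cd4 cells. Of tumor Tdp cells 95.9% had such a UMI, and 75.3% had it together with a Cd4 UMI, against 9.06% of tumor Cd4 cells. No UMI of any of the 3 coreceptor genes was found in 14.4%. The authors' annotation gave a T cell receptor for 2435 of the cells. Of these, 2280 had both chains, 152 lacked the alpha chain and 3 lacked the beta chain. They held 3 distinct receptor entries, as many as there are such groups. An entry that lacks a chain counts apart from a full one, so the number of receptors can be below 3. Whether the chains match between the groups was not tested. By the same count tumor Tdp cells held 3 entries and tumor Tcell cells 2, whereas 1793 lymph node Cd4 cells with a receptor held 1789. Comparisons of the Cd4 labels across libraries therefore also compare cells of very few receptors with cells of many. The comparisons of these cells with Tdp, Tcell, lymph node Cd4 and lymph node Treg cells below all use the same tumor Cd4 cells and so are not independent of each other.

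The defining genes of other cell types were at or near 0. The 8 B cell markers summed to 0.286 CPM with 6 of them at 0, Cd79a included. The 9 macrophage markers summed to 7.52 CPM with Adgre1 at 0, the 7 dendritic cell markers to 2.15 CPM with Flt3 at 0, and the 6 melanoma markers in the table to 1.43 CPM with Tyrp1 at 0. The 7 natural killer markers in the table summed to 18.1 CPM with Ncr1 at 0. Trdc, the constant segment of the delta receptor chain, stood at 114 CPM, while Tcrg-C1 and Tcrg-C2 of the gamma chain were at 0. Ighm reached 24.8 CPM of the 25.6 CPM of the plasma cell list, in which Jchain was at 0. Markers of fibroblasts, endothelial cells, neutrophils and mast cells summed to 0.143, 12.1, 0 and 0.501 CPM, the endothelial value being Pecam1 alone. Only 1 of 6 fibroblast, 4 of 6 endothelial, 2 of 6 neutrophil and 2 of 5 mast cell markers were in the table. These sums therefore say little about the absence of those cells.

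Of the genes named, Tnfsf11 and Ccl1 had the highest ratio of summed level in Cd4-labelled tumor cells to the next of 5 other labels. Tnfsf11 is one of the markers chosen with earlier results of these data known, so its rank is no independent finding. Ccl1 was seen in 4.88% of the thinned cells, and 24 of 2418 cells held 51.4% of its UMIs. Its rank thus rests on few cells and does not describe most cells of the label. Of 4677 genes with 20 CPM or more in the Cd4-labelled tumor cells, 1219 had their highest level there. Of the same 4677 genes, 23 stood at least 2-fold above every other label, which is 0.492%. Every label came from 1 library, so the order of the genes is a description.

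Tnfsf11 encodes RANKL, a TNF family ligand known from bone, lymph node formation and dendritic cell survival, and lies on chromosome 14 at 78277446 to 78308043 (GRCm38, equal to mm10). Its level was 122 CPM in tumor Cd4 cells, 27.3 in tumor Tcell, 3.07 in tumor Tdp, 8.56 in lymph node Cd4, 12.5 in lymph node Cd8 and 18.4 in lymph node Treg cells. The nearest label was thus Tcell of the same library, 4.48-fold lower (interval 2.98 to 7.09). Ccl1, a chemokine gene on chromosome 11 at 82176666 to 82179812, stood at 78.4 CPM, against 20.2 in Tcell and 2.74 in Tdp cells. Among lymph node labels Ccl1 ranged from 0.222 CPM in Cd4 to 1.88 CPM in Cd8 cells. Ccr8, the receptor of CCL1, was also high, at 89.0 CPM, but was exceeded by lymph node Treg cells at 198 CPM. Tcell cells had 21.4 CPM of Ccr8, and the other labels between 4.77 CPM in Tdp and 9.01 CPM in lymph node Cd4 cells.

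Serpinb1a, an inhibitor of granule serine proteases on chromosome 13 at 32842092 to 32853206, stood at 151 CPM. It reached 40.3 CPM in Tcell and 34.97 CPM in Tdp cells, and 0 UMIs were counted in lymph node Cd4 cells. Against a floor of 3 UMIs in that label, 0.334 CPM, it was at least 452-fold higher in tumor Cd4 cells. Igfbp7, a secreted growth factor binding protein, had 63.6 CPM in tumor Cd4 cells and 20.2 CPM in the next label, Tcell. It was at least 191-fold above lymph node Cd4 cells, which had 0 UMIs. Ifitm1 and Ifitm2 encode membrane proteins that hinder virus entry and lie next to each other on chromosome 7. Ifitm1 stood at 178 CPM and Ifitm2 at 162 CPM, with 71.2 and 49.8 CPM in Tcell cells and 0 UMIs of either in lymph node Cd4 cells. The Ifitm genes are related in sequence, and whether reads were split correctly among them was not tested.

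Further genes highest in these cells included the phosphatase gene Dusp14 (156 CPM, next label 55.5 CPM in Tdp) and Tnfsf9, the ligand of the costimulatory receptor 4-1BB (97.8 CPM, next 41.5 in Tcell). The tetraspanin genes Cd82 and Cd9 stood at 496 and 95.5 CPM. The label next to Cd82 was tumor Tcell at 208 CPM, and that next to Cd9 was lymph node Cd4 at 41.9 CPM. Tpi1, a glycolytic enzyme gene, reached 386 CPM with Tdp next at 157 CPM. Fam110a stood at 223 CPM, Nrgn, which encodes the calmodulin-binding neurogranin, at 66.0 CPM, and Serpine2, another protease inhibitor gene, at 68.1 CPM. Eea1, an early endosome gene at 180 CPM, was the last of the 15 genes named by this rule and the only one of them short of 2-fold, with a log2 ratio of 0.95 to Tcell cells.

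**Figure D1:**
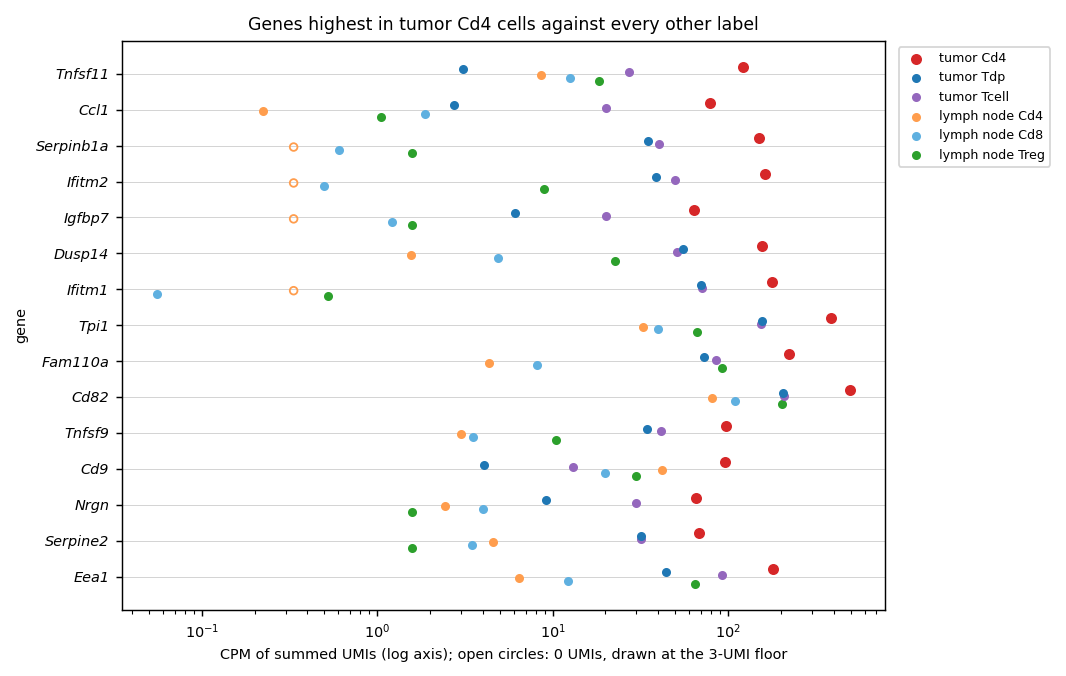
Level of the 15 genes with the highest ratio of tumor Cd4 cells to the next label, in CPM of summed UMIs on a log axis, for 6 labels. Each filled circle is 1 label of 1 library, and open circles mark 0 UMIs drawn at the 3-UMI floor. Tumor Cd4 cells are furthest right for every gene, with Tnfsf11 at 122 CPM against 27.3 CPM in the next label.

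The marker genes differed in how many of the cells carried them. Nkg7, a granule membrane protein gene, was seen in 93.8% of tumor Cd4 cells at 2000 UMIs, and 71.9% had 3 or more UMIs of it. Tnfrsf4, which encodes the costimulatory receptor OX40, was seen in 74.3%, with 3 or more UMIs in 32.4%. Cd40lg was seen in 24.03%, Tnfsf11 in 14.8%, Ccr8 in 14.0%, Il21 in 5.87% and Ccl1 in 4.88%. In lymph node Cd8 cells, a label of the other library, the shares at the same depth were 2.24% for Tnfrsf4, 2.06% for Cd40lg and 1.74% for Tnfsf11. They were 1.014% for Ccr8 and 0.0724% for Ccl1, and the summed level of Il21 was 0.276 CPM. Tnfsf11 and Ccl1 had higher levels there than in lymph node Cd4 cells, so these shares are a description and no background level. Cells with a UMI mostly had few: the mean over cells with at least 1 UMI was 1.30 for Cd40lg, 1.56 for Tnfsf11, 1.38 for Il21 and 2.84 for Tnfrsf4.

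Ifng, the interferon gamma gene, was seen in 37.3% of the cells, and Lag3, an inhibitory receptor gene, in 66.7%. Gzmb, a granule protease gene, was seen in 34.8% and the chemokine gene Ccl5 in 31.7%. Both were near-universal in tumor Tdp cells of the same library, at 91.1% and 94.4%. The part of free RNA from other cells in these shares was not tested. With 3 or more UMIs, Gzmb was found in 12.03% and Ccl5 in 19.5% of tumor Cd4 cells.

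**Figure D2:**
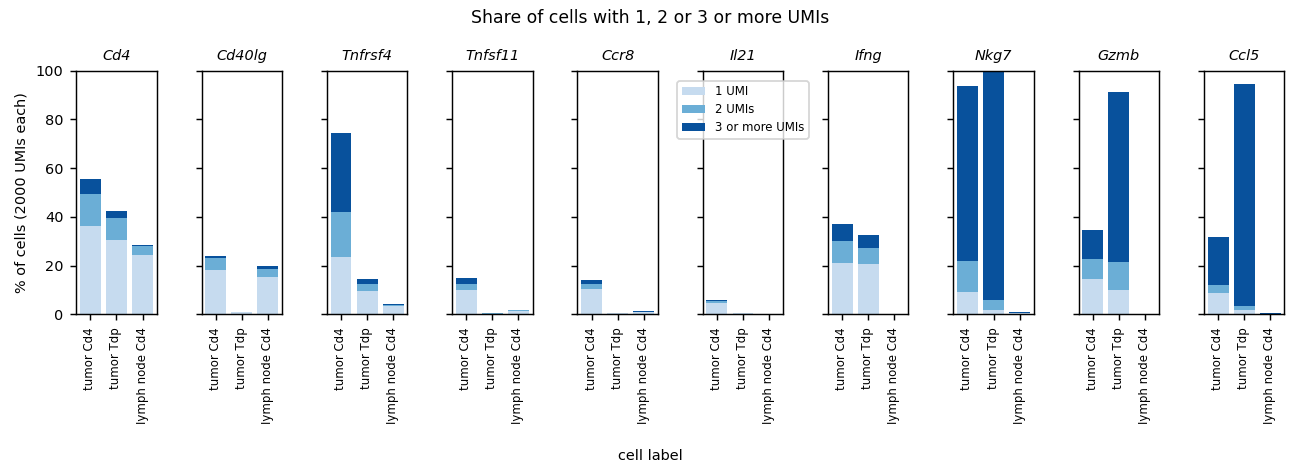
Share of cells with 1, 2 or 3 or more UMIs of 10 genes at 2000 UMIs per cell, in tumor Cd4, tumor Tdp and lymph node Cd4 cells (vertical axis, percent of cells). Tnfrsf4 was seen in 74.3%, 14.6% and 4.14% of these cells, whereas Ccl5 was seen in 31.7%, 94.4% and 0.497%.

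Against lymph node Cd4 cells, the tumor cells of the same label had higher levels of most type 1 helper, cytotoxic and inhibitory receptor genes and lower levels of the naive cell genes. The naive list summed to 558 CPM in tumor and 6694 CPM in lymph node Cd4 cells, and Klf2, a factor that keeps homing genes on, had the highest tumor level of the list, at 159 CPM. Of 5127 genes with 20 CPM or more on either side, 756 were at least 2-fold higher in tumor (14.7%) and 313 at least 2-fold lower (6.1%), 20.9% in either direction, with a median log2 ratio of 0.20. The median share of UMIs from ribosomal protein genes was 28.1% in tumor Cd4 cells but 43.5% in lymph node Cd4 cells. With receptor, mitochondrial and ribosomal protein genes left out of the total, the count was 635 higher and 780 lower, so the share of higher calls went from 70.7% to 44.9% and the median from 0.20 to −0.16. With TMM scaling 62.4% of calls were higher and the median was 0.08. The 7 genes at 20 CPM or more with 0 UMIs in a whole library were left out. Igfbp4, at 1757 CPM in lymph node Cd4 cells, is such a gene and is listed at 0 throughout the tumor library. It belongs to the naive list, and its 1757 CPM is part of the 6694 CPM given above.

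The metallothionein gene Mt1 had the highest ratio, with 968 CPM in tumor and 0.778 CPM in lymph node Cd4 cells, 1244-fold (603 to 3094). The split between Mt1 and its close copy Mt2, which stood at 110 CPM in tumor Cd4 cells, is uncertain. Gzmb stood at 490 against 1.22 CPM, 401-fold (224 to 804), and Ifng at 347 against 1.22 CPM, 284-fold (159 to 569). Csf1, the growth factor of macrophages, had 290 against 0.778 CPM, 372-fold (180 to 926). Klrc1, which encodes the inhibitory receptor NKG2A, had 403 against 1.78 CPM. Others of the 12 highest genes were Rgs16, a signalling regulator gene (940 against 4.45 CPM), S100a6, which encodes a calcium-binding protein (3242 against 21.3 CPM), Plac8 (781 against 2.67 CPM) and Lgals3, the galectin 3 gene (851 against 3.002 CPM).

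Among the genes with the lowest ratios was Ccr7, the lymph node homing receptor gene, which stood at 15.4 CPM in tumor and 601 CPM in lymph node Cd4 cells, 39.1-fold lower in tumor (34.1 to 45.0). At equal depth Ccr7 was seen in 1.65% of the tumor cells and in 60.02% of the lymph node cells. The level of Ccr7 in tumor Tdp cells was lower again, at 0.603 CPM. In Tcell cells it was 1.19 CPM, which is below the 3-UMI floor of 3.56 CPM for that label. Further low genes were Dapl1 (2.58 against 290 CPM), Nsg2 (2.86 against 203 CPM), Trat1, a receptor-associated adaptor gene (0.644 against 81.9 CPM), Atp1b1, a sodium pump subunit (1.00 against 92.5 CPM), and Il6ra, the interleukin 6 receptor (1.72 against 119 CPM). Ly6c1, at 6.30 against 343 CPM, is a close copy of Ly6c2, which went the other way at 832 against 14.2 CPM, so the split between the 2 is uncertain.

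The lists of genes showed the same contrast, and the background for them is the 14.7% higher and 6.1% lower of all genes counted. All 15 counted naive genes were at least 2-fold lower in tumor Cd4 cells, with a median log2 ratio of −4.90, and so were all 9 stem-like genes, with a median of −2.94. Tcf7, the factor of naive and progenitor T cells, stood at 16.2 against 368 CPM and Bcl2, a survival gene, at 29.8 against 234 CPM. The naive and stem-like lists share members, Tcf7 and Ccr7 among them. In the type 1 helper list 12 of 13 genes passed 2-fold upward, with a median of 4.57. They included Tbx21, the T-bet gene, at 172 against 1.22 CPM, Bhlhe40 at 1347 against 10.01 CPM and the receptor chain genes Il12rb2 (156 against 1.78 CPM) and Il18rap (129 against 0.889 CPM).

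In the inhibitory receptor list 10 of 12 genes passed 2-fold upward, with a median of 4.93. Lag3 stood at 701 against 10.6 CPM, Tigit at 451 against 13.3, Ctla4 at 506 against 43.0 and Pdcd1, the PD-1 gene, at 196 against 7.34 CPM. Havcr2, the TIM-3 gene, was at 104 CPM and had only 2 UMIs in lymph node Cd4 cells, a ratio of 466 (129 to 3851). Of 11 cytotoxic genes 9 were higher and 1 lower, with a median of 3.70. Prf1, the perforin gene, was not among them, at 23.6 against 14.2 CPM, and Lamp1 was the lower one, at 10.5 against 24.7 CPM. All 4 chemokine genes counted were higher. Of 9 chemokine receptor genes 5 were higher, with Ccr2 at 151 against 0.445 CPM and Cxcr6 at 306 against 3.89 CPM, and 3 were lower, Ccr7 and Cxcr4 (1.22 against 49.9 CPM) together with S1pr1, the receptor that guides cells out of lymph nodes (11.7 against 276 CPM).

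Glycolysis genes were at least 2-fold higher in 14 of 15 cases, with a median of 1.80, Aldoa at 1268 against 318 CPM and Slc2a3, a glucose transporter gene, at 59.6 against 8.56 CPM. Hypoxia response genes were higher in 5 of 9, among them Egln3 (76.3 against 4.45 CPM) and Hif1a (331 against 54.3 CPM). Of 18 effector surface and small proteins genes 16 were higher, with a median of 3.52. Of 16 interferon response genes 7 were lower and none higher, with a median of −0.65, Ifit3 at 6.30 against 71.6 CPM and Oasl2 at 4.73 against 46.8 CPM, while Ifi27l2a, the most abundant of them, stood at 2291 against 1849 CPM. All 11 class I presentation genes were within 2-fold. The median of the immediate early and stress list was 0.12 and that of the cell cycle list 0.23, and both turned negative with receptor, mitochondrial and ribosomal protein genes left out of the total. UMIs of at least 2 cycling genes were found in 23 tumor Cd4 cells, 0.938% (0.596% to 1.40%), and in 5 of the lymph node Cd4 cells, 0.267% (0.0867% to 0.622%).

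The helper genes themselves were split in this comparison. In the helper identity list 4 of 8 genes passed 2-fold upward and none downward, with a median of 0.80. Icos and Cd28, both costimulatory receptor genes, stood at 366 against 117 CPM and 606 against 296 CPM. Tnfrsf4 stood at 1050 against 27.4 CPM, 38.4-fold (33.8 to 43.7), and Tnfsf11 at 122 against 8.56 CPM, 14.3-fold (11.4 to 18.2). Cd40lg, in contrast, was at 162 against 121 CPM, 1.34-fold (1.24 to 1.44), and Tnfsf8, the CD30 ligand gene, at 53.2 against 54.5 CPM with an interval of 0.870 to 1.10 for the ratio. Zbtb7b, which encodes ThPOK, the factor of the CD4 lineage, was at 31.6 against 31.0 CPM. Of the markers, Tnfrsf4 and Tnfsf11 thus differed by over 10-fold between the Cd4 labels of the libraries, while the intervals of Cd40lg and Tnfsf8 lay within 2-fold.

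Within the tumor library, Cd4 and Tdp cells differed at fewer genes. Of 4820 genes counted, 111 were at least 2-fold higher in Cd4 cells (2.3%) and 57 at least 2-fold lower (1.18%), 3.49% in either direction, with a median log2 ratio of 0.11. With TMM scaling the median was −0.01 and the share of higher calls 54.2% in place of 66.1%. The 24 genes highest in Cd4 cells included the TNF family members Tnfsf11, Cd40lg, Tnfsf8 and Tnfrsf4 beside genes of other kinds such as Ccl1, Cd9, Ramp3 and Igfbp7, and those lowest included the granule proteases Gzma, Gzmb and Gzmk.

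Among helper identity genes 5 of 8 were at least 2-fold higher than in Tdp cells, with a median of 2.35, and of 9 TNF family ligands 5 were higher and none lower. The helper identity list holds markers of this label, such as Tnfrsf4, chosen with earlier results of these data known, so its count is a description only. These lists also share members, Cd40lg among them, and are not independent of each other. Cd40lg was 23.7-fold higher (19.8 to 28.6), at 6.85 CPM in Tdp cells, and Tnfsf8 12.8-fold (10.1 to 16.4). Lta, the lymphotoxin gene, stood at 28.0 against 3.18 CPM. Tnf, Fasl and Ltb were within 2-fold, at 225 against 141 CPM, 175 against 187 CPM and 914 against 682 CPM. Of 9 cytokine genes 4 were higher, Il21 (32.9 against 3.18 CPM), Csf2 (29.1 against 1.64 CPM), Csf1 (290 against 102 CPM) and Lta, while Ifng was within 2-fold at 347 against 284 CPM. Of 8 follicular helper genes 5 were higher, among them Maf (89.9 against 20.7 CPM), Cd200 (51.5 against 5.10 CPM) and Izumo1r (73.8 against 11.3 CPM), whereas Pdcd1 was within 2-fold at 196 against 279 CPM and the lineage factor Bcl6 was under 20 CPM in both.

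Beyond the genes of the fixed lists, Ramp3, a coreceptor of peptide hormone receptors, stood at 57.8 against 4.49 CPM, and Podnl1 at 92.5 against 20.4 CPM. Others among the 24 highest were Rora, a nuclear receptor gene (59.1 against 18.3 CPM), Nrp1, the neuropilin 1 gene (76.1 against 24.8 CPM), and Vamp5 (68.4 against 23.3 CPM). Ifitm3 reached 531 against 129 CPM. Hif1a and Egln3 were higher in Cd4 cells, at 331 against 120 CPM and 76.3 against 22.7 CPM, and made up the 2 of 9 hypoxia genes past 2-fold. In the receptor signalling list, 2 of 17 genes were higher, the zeta chain gene Cd247 (527 against 197 CPM) and the related Fcer1g (37.3 against 10.6 CPM), and the kinase gene Txk was lower (11.0 against 27.02 CPM). The CD3 genes were nearly even, with Cd3e at 1876 against 1838 CPM.

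Of 16 cytotoxic genes 8 were at least 2-fold lower than in Tdp cells, with a median of −1.19. Fasl and Nkg7 were within 2-fold, Nkg7 at 2374 against 3582 CPM, and Srgn, the granule proteoglycan gene, had a log2 ratio of 0.79. Of 17 interferon response genes 5 were lower and none higher, with a median of −0.50, Ifit3 at 6.30 against 34.3 CPM and Mx1 at 12.5 against 33.5 CPM. The 14 type 1 helper genes had a median of 0.20 and the 12 inhibitory receptor genes one of −0.27. In the inhibitory list Cd200 was higher and Cd160 lower (11.7 against 94.7 CPM). Leaving out the 251 Cd4-labelled cells with a Cd8a or Cd8b1 UMI gave 117 genes higher and 60 lower.

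**Figure D3:**
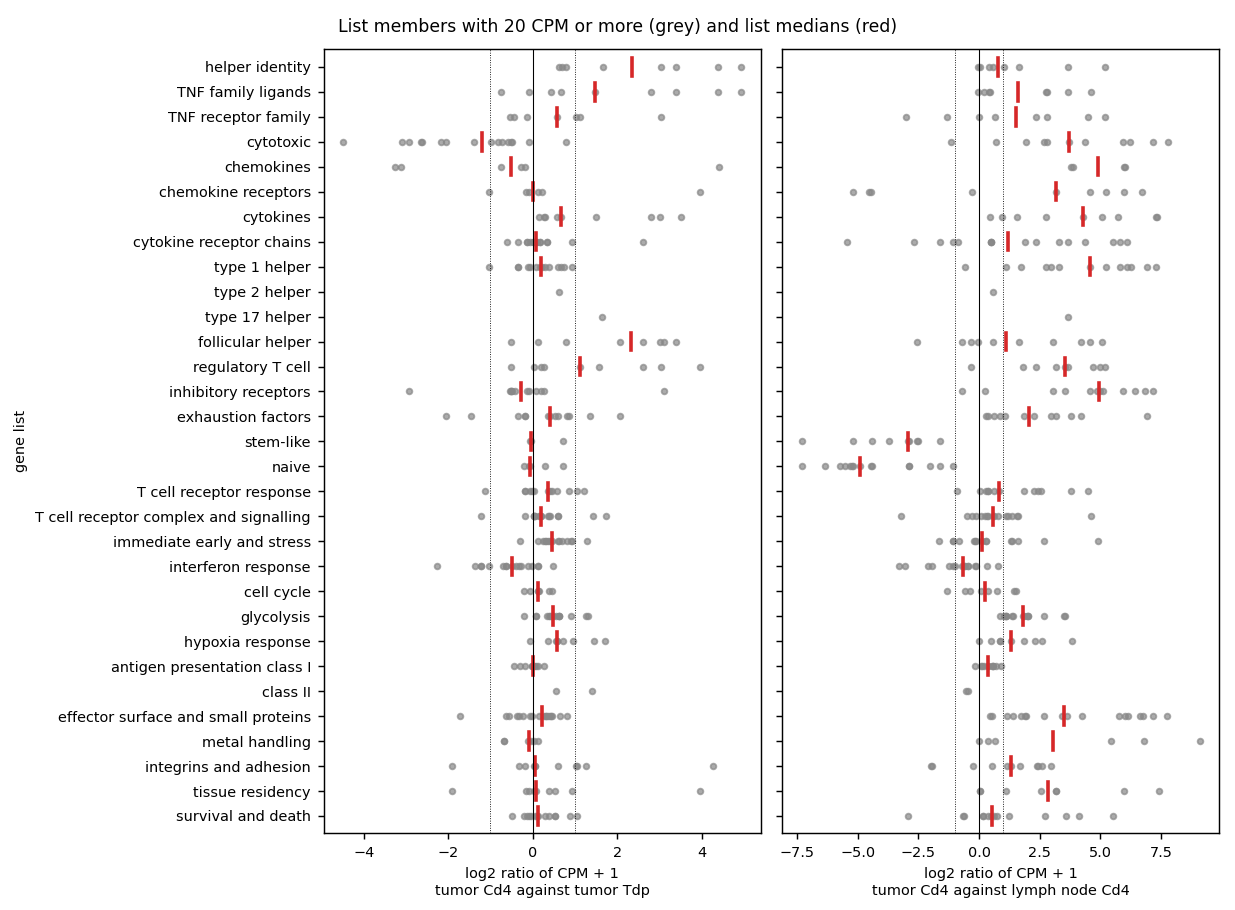
Log2 ratio of CPM plus 1 for each list member with 20 CPM or more (grey points) and the list median (red bar), tumor Cd4 against tumor Tdp on the left and against lymph node Cd4 on the right. Dotted lines mark 2-fold. The helper identity list lies at a median of 2.35 on the left and 0.80 on the right, and the cytotoxic list at −1.19 and 3.70. Both panels use the same tumor Cd4 cells.

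The tumor Tcell label was the closest to the Cd4 label for many of the genes above, and was much shallower. Of 5030 genes counted, 293 were at least 2-fold higher in Cd4 cells (5.83%) and 56 at least 2-fold lower (1.11%), 6.94% in either direction. These counts moved with the processing, to 565 higher and 109 lower with every cell thinned to 2000 UMIs, which kept 214 Tcell cells, and to 121 and 22 with a pseudocount of 10. The share of higher calls was 84.0%, and 72.2% with TMM scaling or 65.7% without receptor, mitochondrial and ribosomal protein genes in the total. Cd9 had the highest ratio, 7.32-fold (4.08 to 14.7), followed by Cd200, 7.23-fold (3.31 to 19.8), on 11 and 6 UMIs in Tcell cells. Tnfsf11, Spp1, Ccr8 and Hsd11b1, a steroid-activating enzyme gene, were between 4.09-fold and 4.48-fold higher. Spp1 encodes the secreted protein osteopontin and stood at 247 against 59.3 CPM.

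The lowest genes against Tcell cells were Ccl5, at 2048 against 17380.5 CPM, and AY036118, a noncoding gene that covers ribosomal RNA sequence, at 532 against 3805 CPM. Lrrk1 (18.9 against 59.3 CPM), Wdr95 (25.1 against 77.1 CPM), Prf1 (23.6 against 70.0 CPM) and Fam78a (23.9 against 66.4 CPM) followed. Tcell cells had a Cd4 UMI in 45.3% and a Cd8a or Cd8b1 UMI in 47.3%, and mitochondrial genes took a median of 3.1% of their UMIs against 2.03% in Cd4 cells. The part of RNA quality in these values was not tested.

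The comparison with lymph node Treg cells sets regulatory genes of these labels side by side. The authors gave Treg cells a label of their own in both libraries, by a rule that is not known here. Whether low levels of regulatory genes in the Cd4 label follow from the labelling was not tested. Of 5386 genes counted, 321 were at least 2-fold higher in tumor Cd4 cells (5.96%) and 416 at least 2-fold lower (7.72%), 13.7% in either direction. The share of higher calls was 43.6%, and 61.1% with TMM scaling, which moved the median log2 ratio from −0.11 to 0.13. Foxp3, the factor that defines regulatory T cells, was at 0.501 against 394 CPM, 786-fold lower (380 to 1961). Ikzf2, the Helios gene, stood at 14.7 against 683 CPM, Lrrc32 at 0.0716 against 117 CPM on 1 UMI in tumor Cd4 cells, and the integrin gene Itgae at 0.501 against 172 CPM. Areg, the growth factor amphiregulin, was at 15.5 against 413 CPM.

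In the regulatory T cell list 10 of 15 genes were lower than in Treg cells and none higher, with a median of −1.70. The 5 others included Tnfrsf4 at 1050 against 1236 CPM and Tnfrsf18, the GITR gene, at 429 against 553 CPM, as well as Ctla4, Tigit and Nrp1. The same list was at least 2-fold higher than in lymph node Cd4 cells in 8 of 9 genes, with Foxp3 not counted because both levels were under 20 CPM. The genes highest against Treg cells were Spp1, with 0 UMIs in Treg cells and so at least 157-fold higher in tumor Cd4 cells, Ccl4 (877 against 3.68 CPM) and Klrc1 (403 against 2.10 CPM). They also included Il12rb2, a chain of the interleukin 12 receptor, on 1 UMI in Treg cells, a ratio of 297 (53.3 to 11739), and AA467197, at least 72.3-fold higher. Type 1 helper genes were at least 2-fold higher than in Treg cells in 10 of 14 cases, glycolysis genes in 10 of 15 and cytotoxic genes in 9 of 11, while 8 of 15 interferon response genes were lower.

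The spread from cell to cell was close to counting error for most genes and far above it for a few chemokines. Over 2370 genes with a mean of at least 0.1 UMIs in thinned tumor Cd4 cells, the variance divided by the mean, which is 1 for pure counting error, had a median of 1.03, with the 5th percentile at 0.957 and the 95th at 1.55. It was 2 or more for 55 genes. The most abundant genes were housekeeping and cytoskeletal ones, with Tmsb10 at 12838 CPM, Eef1a1 at 12615 CPM and Tmsb4x at 10690 CPM, each seen in at least 99.96% of the thinned cells.

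Ccl4, Ccl5 and Ccl3, 3 chemokines that draw T cells and monocytes, had ratios of 44.9, 43.4 and 41.9. The top 1% of cells, 24 of 2418, held 34.2% of all Ccl4 UMIs, 22.7% of Ccl5 UMIs and 49.6% of Ccl3 UMIs, with up to 297 UMIs of Ccl4 in a single cell of 2000. Ccl3 and Ccl4 overlap on chromosome 11 in the annotation, from 83647843 to 83649378 and from 83648624 to 83664683, so reads near the overlap are uncertain. Spp1 followed with 13.7, its top 24 cells holding 41.4% of its UMIs, and was seen in 11.3% of cells. Gzmb had 5.65, Ifitm1 5.77, and Fos, an immediate early gene, 5.17.

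Ccl1, at 5.01, had 51.4% of its UMIs in 24 cells, the highest such share of the 15 genes. Ifi27l2a, an interferon response gene with a ratio of 6.68, was seen in 83.5% of cells, so its spread was one of degree. The 15 genes were ranked by this same ratio, so any gene outside them that was ranked lies below them by construction. Marker genes had 2.39 for Tnfrsf4, 1.97 for Tnfsf11, 1.68 for Ccr8, 1.33 for Cd40lg and 1.11 for Cd4. Tnfrsf4, Tnfsf11 and Ccr8 nevertheless lay above the 95th percentile of all 2370 genes, 1.55, while Cd40lg and Cd4 lay below it. Predicted genes were left out of the naming, but 1 of them, Gm42418, which overlaps ribosomal RNA, had 45.1. Lars2 and AY036118, also affected by ribosomal RNA reads, had 4.64 and 4.44. With 3000 UMIs per cell the ratios of Ccl4, Ccl5, Ccl3, Spp1 and Ccl1 were each over 1.5 times larger, and Ccl4, Ccl5 and Ccl3 were again the highest of the 15.

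**Figure D4:**
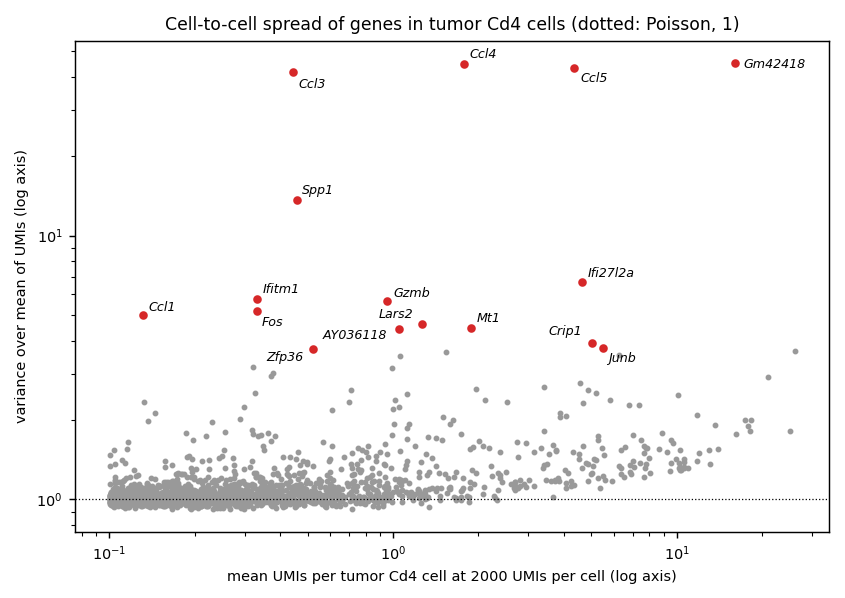
Variance over mean of UMIs per cell against mean UMIs per cell in 2418 tumor Cd4 cells thinned to 2000 UMIs, both on log axes, for genes with a mean of at least 0.1, receptor segments left out. Red points are the 15 most variable genes and Gm42418, and the dotted line marks the value 1 of counting error. Ccl4, Ccl5 and Ccl3 lie above 40, apart from all but Gm42418.

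Genes were also read together in the same cells, for 20 genes each seen in at least 50 thinned cells, which makes 190 pairs. Gzmb and Ccl5 went together. Gzmb was seen in 54.7% of the 766 cells with a Ccl5 UMI (51.1% to 58.3%) and in 25.6% of the 1652 without (23.5% to 27.8%). The helper genes were not alike in this. Ccl5 was seen in 13.1% of the 358 cells with a Tnfsf11 UMI (9.81% to 17.1%) and in 34.9% of the others, and Gzmb in 8.02% of the 187 cells with a Tnfsf8 UMI (4.56% to 12.9%) and in 37.1% of the others. Gzmb was also less often seen in cells with Cd200 (19.2% against 36.3%) and with Ccr8 (24.2% against 36.6%). In cells with Cd40lg the share with Gzmb was 33.6% against 35.2% in the others, and in cells with Il21 it was 32.4% against 34.97%. Ccl5 was seen in 39.4% of cells with Il21 (31.3% to 48.0%) against 31.2%, and in 38.8% of cells with Izumo1r (33.3% to 44.5%) against 30.7%.

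Tnfsf11 was seen in 29.7% of the 118 cells with a Ccl1 UMI (21.6% to 38.8%) and in 14.0% of the others, and Ccr8 in 23.7% against 13.5%. A small set of cells with Slamf6, a surface receptor of progenitor T cells, numbered 51. Nkg7 was seen in 66.7% of them (52.1% to 79.2%) against 94.4% of the others, Gzmb in 7.84% (2.18% to 18.9%) against 35.4%, Tnfsf8 in 29.4% against 7.27% and Tcf7 in 15.7% against 2.75%. Lag3 was seen in 80.6% of the 304 cells with Izumo1r against 64.7%, and in 78.2% of the 142 cells with Il21 against 65.9%. Cd40lg and Ifng were nearly even, Ifng being seen in 40.6% of cells with Cd40lg and 36.2% of those without. These are cells of 1 library and the pairs were read without a test.

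Ccl5 was seen in 54.8% of the 115 thinned cells with a Cd8b1 UMI (45.2% to 64.1%) against 30.5% of the others, and Gzmb in 54.8% against 33.8%. Cells with a Cd8b1 UMI were 4.76% of the thinned cells. Leaving out all cells with a Cd8a or Cd8b1 UMI moved the variance over mean of none of the 15 most variable genes by over 1.5 times. Doublets of a Cd4 and a Tdp cell were not called. The 5% of cells with the most UMIs were left out as an alternative, which gave 114 genes higher and 62 lower than in Tdp cells.

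The difference between Cd4 and Tdp cells in tumor was set beside that between Cd4 and Cd8 cells in lymph node, a comparison that shares no cells with it. Of 4530 genes counted in lymph node, 65 were at least 2-fold higher in Cd4 cells (1.43%) and 96 at least 2-fold lower (2.12%), 3.55% in either direction. Among the 4053 genes counted in both, 55 were higher in tumor Cd4 cells and 28 in lymph node Cd4 cells, and 12 in both. That is 21.8% of the first list, beside 28 of all 4053 genes, and 42.9% of the second, beside 55 of all 4053. For lower genes the lists held 28 and 72 and shared 14. That is 50% of the first, beside 72 of all 4053 genes, and 19.4% of the second, beside 28 of all 4053.

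Genes higher in both were Cd40lg, Zbtb7b, Cd9, Ramp1, Ramp3, Ckb, Selenop, Gpr183, Tspan32, Tmem154, Sgms1 and Gm20400. The lineage factor Zbtb7b had a log2 ratio of 1.66 in tumor and 3.27 in lymph node, and Cd40lg one of 4.38 and 2.93. Lower in both were Ccl5, Cd160, Eomes, a factor of CD8 and memory T cells, Adgrg5, Jaml, Cd7 and Ly6c2 among others, with Eomes at −2.05 and −4.25 and Ly6c2 at −1.72 and −6.20. Tnfrsf4 had a log2 ratio of 3.05 in tumor and 0.53 in lymph node, and Tnfsf8 one of 3.39 and −0.41. The difference between the contrasts was not tested. Nkg7 had −0.59 in tumor and −4.74 in lymph node.

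**Figure D5:**
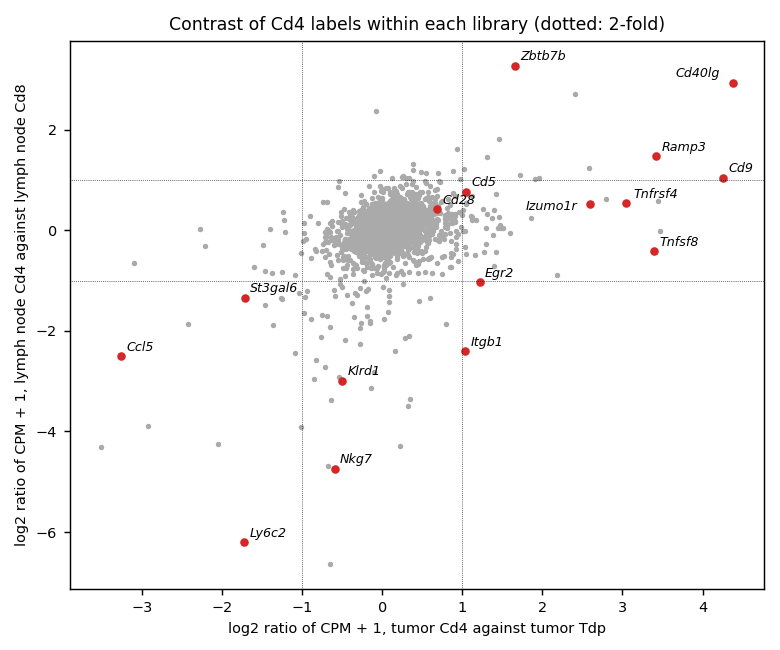
Log2 ratio of CPM plus 1 for tumor Cd4 against tumor Tdp cells (horizontal) and lymph node Cd4 against lymph node Cd8 cells (vertical) for the 4053 genes with 20 CPM or more in both comparisons. Dotted lines mark 2-fold and red points are named examples. Cd40lg lies at 4.38 and 2.93, and Itgb1 at 1.03 and −2.41.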

How the data were processed

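Single-cell RNA was measured in 1 tumor and 1 lymph node library. The authors deposited raw UMI counts per gene and cell in 1 table of 14721 genes and an annotation (other values) with library, label and receptor per cell. The submitters' processing notes name Cell Ranger 3.1.0 and the build mm10, and the sources used here name no filter on cells or genes.

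UMIs were summed per label and scaled to CPM. Labels were compared by log2 ratios of CPM plus 1. A gene was counted at 20 CPM or more in either label and called at 2-fold. Receptor segments were left out, as were the coreceptor genes Cd4, Cd8a and Cd8b1 and genes at 0 throughout a library. Ratio intervals are exact conditional Poisson intervals, and shares have Clopper-Pearson intervals (95%). Shares and spread used cells thinned to 2000 UMIs. A label at 0 was given a floor of 3 UMIs.

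Named genes were those with the highest and lowest ratios among genes with at least 50 CPM and 100 UMIs (15 against every other label, 24 against Tdp, 12 against lymph node Cd4, 6 elsewhere), the 15 most variable, and members of 43 lists with 449 genes, 422 of them in the table. Predicted, mitochondrial and ribosomal protein genes were left out of the naming. Some genes that the rules named are not reported here. The erythroid list had no gene in the table. The members, markers and lists were chosen with earlier results of these data known. Gene coordinates are RefSeq's for GRCm38.p6. The steps were tested on simulated data. Python 3.11.15, scipy 1.17.1 and edgeR 4.0.16 (TMM factors only) were used.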

Additional observations from a re-analysis of the deposited data

Results flagged for a closer look

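Egr2 and Itgb1 differed in opposite directions between the 2 libraries. Egr2, an early response factor of receptor signalling, was higher in tumor Cd4 than in tumor Tdp cells (27.9 against 11.4 CPM, log2 ratio 1.22) and lower in lymph node Cd4 than in lymph node Cd8 cells (15.3 against 32.5 CPM, −1.04). Itgb1, the integrin beta 1 chain, stood at 142 against 68.6 CPM in tumor (1.03) and at 17.2 against 95.9 CPM in lymph node (−2.41). The labels set against Cd4 differ between the libraries and each library stands alone, so the difference was not tested.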

How the results depend on the processing

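Single genes were rerun only against Tdp and against lymph node Cd4 cells, and not for the changes of the CPM minimum. In those runs no named gene called at 2-fold changed direction. Of 615 log2 ratios of named and list genes, 285 moved by more than the margin of their counting interval with TMM scaling. With receptor, mitochondrial and ribosomal protein genes out of the total 236 did, and with a pseudocount of 10, 221 did. Counts of genes higher and lower moved most with the CPM minimum. Without a minimum they were 335 and 198 against Tdp, 1440 and 821 against lymph node Cd4, 1081 and 475 against Tcell, 713 and 1308 against lymph node Treg, and 184 and 372 for lymph node Cd4 against Cd8. At 50 CPM they were 61 and 31, 449 and 166, 137 and 20, 203 and 209, and 29 and 42, with fewer genes tested. With receptor, mitochondrial and ribosomal protein genes out of the total, lower counts were 89 against Tdp, 780 against lymph node Cd4, 149 against Tcell and 162 within lymph node. With a pseudocount of 10, lower counts were 31 against Tdp and 265 against Treg, those against Tcell were 121 and 22, and 39 were higher within lymph node. TMM scaling gave 266 lower against Treg, and thinning gave 565 and 109 against Tcell, where it kept 214 of 406 cells. The cause of the other shifts was not tested. Leaving out cycling cells, cells with UMIs of other cell types or cells with shared barcodes (chosen after seeing the data) moved no gene count by over 1.5 times. At 1 library a tissue nothing bears on variation between animals, and a label with 0 UMIs allows up to 0.215 CPM in tumor Cd4 and 3.56 CPM in Tcell cells. No paired analysis was possible because each tissue had 1 RNA library and no test was made.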

Other observations

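Some genes were carried by very few tumor Cd4 cells. Il10, an anti-inflammatory cytokine gene, stood at 12.7 CPM, was seen in 1.32% of thinned cells and had a variance over mean of 6.75. Areg, at 15.5 CPM, was seen in 1.28% and had 4.09. Penk, the proenkephalin gene, stood at 8.02 CPM and was seen in 0.414%, with 4.38. Gzma, at 4.08 CPM, was seen in 0.207% and had 7.82. These genes lie below the mean of 0.1 UMIs required for the ranking and were chosen after their values were seen.

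Trdc was seen at 114 CPM in tumor Cd4 cells and makes up nearly all of the 115 CPM of the gamma delta list, against 2.89 CPM for that list in lymph node Cd4 cells and 149 CPM in tumor Tdp cells. Ccl5 stood at 148 CPM in lymph node Cd4 cells although 0.497% of them carried a UMI at 2000 UMIs, and those cells had a mean of 43.8 UMIs. The level of Ccl5 in that label therefore rests on few cells.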
